A study of Mus musculus with 4 samples.

Results

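Imprinted genes known for their part in fetal growth, namely H19, Igf2, Dlk1, Meg3, Peg3, Mest, Cdkn1c, Grb10, Plagl1 and Ndn, were followed in Osr1+ cells of the mouse embryonic limb. The 10 genes were chosen by symbol, out of 23284 genes in the count files. All 10 had enough counts to enter the test between genotypes, which covered 15645 genes.

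RNA-Seq was performed on cells sorted by FACS for GFP from limbs at E13.5, in 2 Osr1 GCE/+ and 2 Osr1 GCE/GCE samples, all on the C57BL/6J background. The GCE allele is a knock-in of eGFP-IRES-CreERt2 at Osr1, a zinc finger transcription factor gene of limb connective tissue. Every sample, controls included, therefore carries at least one GCE allele and the GFP that the sort relies on, and no wild-type sample was part of the comparison. GCE/+ cells keep one intact Osr1 copy and GCE/GCE cells have none. Osr1 itself was at 81.9 and 79.1 CPM (counts per 1000000 counts of a sample after TMM scaling between samples) in GCE/+ replicates 1 and 2, and at 11.9 and 13.9 CPM in GCE/GCE replicates 1 and 2. The difference on the log2 scale was -2.64 (SE 0.11), with an adjusted p of 5.94e-05 by the quasi-likelihood test of edgeR (Benjamini-Hochberg adjustment over all genes tested), which goes with the labels.

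In genomic imprinting, DNA methylation set in the egg or the sperm leaves a gene active mainly on the copy inherited from one parent. Igf2, Dlk1, Peg3, Mest, Plagl1 and Ndn are expressed chiefly from the paternal copy, and H19, Meg3, Cdkn1c and, in most tissues outside the brain, Grb10 from the maternal copy. Many of the paternally expressed genes promote fetal growth and several of the maternally expressed ones restrain it, and the group is typically high in embryonic mesenchyme and down-regulated after birth. Read counts do not tell the parental copies apart, so the parent of origin was not measured here.

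Total counts were between 52121596 and 61402140 per sample, so that 3 counts amounted to 0.0489 to 0.0576 CPM. The 10 genes had between 10765 and 562223 counts in a sample, and the counting error alone was between 0.133% and 0.964%, below the differences between replicates of one genotype. In GCE/GCE replicate 1, Xist was at 1142 CPM against at most 2.63 CPM in the other 3 samples, so 1 sample stood apart from the rest in embryo sex. The limb mesenchyme markers had a summed level of 16883 to 21799 CPM over 11 genes, most of it from Col3a1, Col1a2 and Col1a1. Others of the list were far lower, such as Twist2 at 49.1 to 73.9 CPM and Osr1 at 11.9 and 13.9 CPM in GCE/GCE cells. Sums of the other marker lists were lower, reaching 2378 CPM at most (16 cartilage markers, GCE/GCE replicate 2). The lowest sums were 80.8 to 120 CPM for 8 endothelial, 13.9 to 16.5 CPM for 6 epidermal and 18.8 to 23.1 CPM for 5 Schwann cell and neural crest genes. Per the methods of the study the samples of a genotype came from 2 embryos, while the labels give only a replicate number and no litter.

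Several of these loci also host miRNAs. The sequences are shown because they are a further product of the most abundant transcripts, and because the libraries measured the host RNA and not the mature miRNAs. The mature forms were taken from RefSeq (GRCm38.p6), are written 5′ to 3′, and carry their seed, bases 2 to 8, in capitals.
mmu-miR-675-5p: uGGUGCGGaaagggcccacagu
mmu-miR-675-3p: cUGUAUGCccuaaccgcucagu
mmu-miR-483-5p: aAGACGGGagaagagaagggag
mmu-miR-483-3p: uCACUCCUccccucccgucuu
mmu-miR-335-5p: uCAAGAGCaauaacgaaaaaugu
mmu-miR-335-3p: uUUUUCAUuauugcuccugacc
mmu-miR-770-5p: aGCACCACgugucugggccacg
mmu-miR-770-3p: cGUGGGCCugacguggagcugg

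The hairpin of miR-675 lies within exon 1 of H19, at chr7:142577064-142577147 on the minus strand, so H19 reads and the precursor share sequence. The miR-483 hairpin lies in an intron of Igf2 (chr7:142654924-142654996, minus strand) and the miR-335 hairpin in an intron of Mest (chr6:30741299-30741396, plus strand). The miR-770 hairpin (chr12:109563692-109563785, plus strand) is exonic in 1 of the 3 Meg3 transcripts that span it and intronic in the others. No seed was shared between any of the 8 mature forms. The count files list Mir675, Mir483, Mir335 and Mir770 at 0 counts in every sample, although H19, whose exon 1 holds a hairpin, had at least 464062 counts in each sample. Those zeros are not a measure of the miRNAs, and what led to them was not tested.

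H19 and Igf2 were among the most abundant transcripts of these cells. H19, the long noncoding RNA that lies next to Igf2 (GRCm38 chromosome 7, 142575529 to 142578143, minus strand), was at 8618 and 8873 CPM in GCE/+ replicates 1 and 2, and at 9408 and 9183 CPM in GCE/GCE replicates 1 and 2. Both GCE/GCE values lay above both GCE/+ values, by a margin that was small beside the level. By mean CPM in GCE/+ cells H19 ranked 3 of all genes, and it ranked first of 1013 long noncoding RNA genes with counts. Its place in single samples was 3, 1, 1 and 2, in the order of the samples above.

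Igf2, the secreted fetal growth factor (chromosome 7, 142650766 to 142666816, minus strand), was at 7264 and 7475 CPM in GCE/+ cells and at 7292 and 7592 CPM in GCE/GCE cells. The genotypes overlapped, and Igf2 ranked 4 in GCE/+ cells. Between the genotypes, the log2 fold change was 0.09 for H19 (SE 0.20, edgeR adjusted p = 0.962) and 0.01 for Igf2 (SE 0.19, adjusted p = 0.994) by edgeR. The 95% interval of the difference ran from -0.37 to 0.54 on the log2 scale for H19 and from -0.41 to 0.44 for Igf2. These intervals are wider than the scatter of the samples themselves, since replicates of a genotype differed by at most 0.06 on the log2 scale for either gene and the test shares its estimate of spread over genes. The data therefore do not show an equal level, only that the intervals have these bounds.

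**Figure D1:**
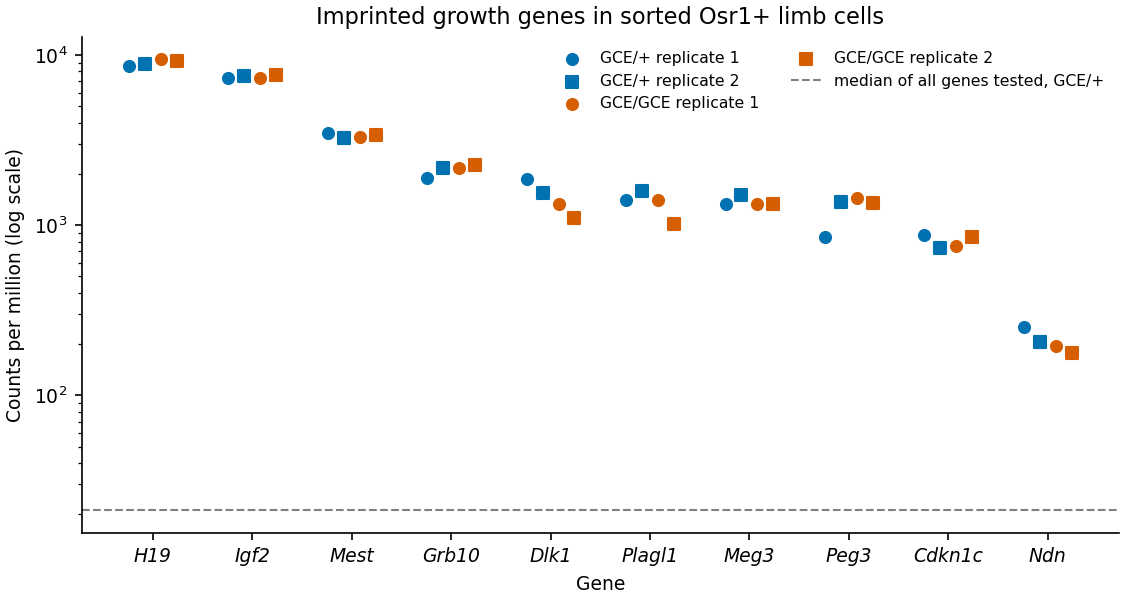
CPM (log scale) of the 10 imprinted growth genes in each of the 4 samples, with colour and marker for sample and a dashed line at the median of all genes tested in GCE/+ cells. H19 and Igf2 are no lower than 7264 CPM in any sample, Ndn is lowest at 176 to 251 CPM, and all 10 lie above the median of 21.1 CPM.

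The remaining growth-associated genes expressed from the paternal copy covered more than an order of magnitude. Mest, which encodes a protein of the alpha/beta-hydrolase family (chromosome 6, 30723547 to 30748465, plus strand), was at 3483 and 3261 CPM in GCE/+ and 3283 and 3399 CPM in GCE/GCE cells. Mest ranked 8 in both genotypes, and its groups overlapped. Plagl1, a zinc finger transcription factor (chromosome 10, 13060504 to 13131694, plus strand), was at 1407 and 1581 CPM in GCE/+ and at 1397 and 1019.8 CPM in GCE/GCE cells. The higher GCE/GCE value of Plagl1 lay just under the lower GCE/+ value, and the GCE/GCE replicates stood further apart than the genotypes did at that edge.

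Peg3, a large zinc finger protein gene (chromosome 7, 6703892 to 6730431, minus strand), was at 851 and 1373 CPM in GCE/+ cells and at 1448 and 1354 CPM in GCE/GCE cells. GCE/+ replicate 1 was the sample out of place, 0.69 below replicate 2 on the log2 scale, and the other 3 samples lay close together. Transcript length moved with that difference over all genes: the log2 difference of GCE/+ replicate 2 from replicate 1 had a Spearman correlation of 0.46 with transcript length, over 15471 genes that share both libraries. Genes with transcripts of at least 8 kb had a median of 0.19, and the Peg3 transcript has 8694 bases. The log2 fold change between genotypes also had a Spearman correlation with transcript length, of 0.26 over genes with a known length. With an offset for transcript length, the Peg3 log2 fold change was 0.23 (edgeR adjusted p = 0.683), against 0.33 without the offset. How much of the difference between the Peg3 samples goes with transcript length was not tested.

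Among the genes expressed from the maternal copy, Grb10, an adaptor that binds the insulin and IGF1 receptors and dampens their signal (chromosome 11, 11930508 to 12038683, minus strand), was at 1877 and 2154 CPM in GCE/+ and 2157 and 2241 CPM in GCE/GCE cells. The groups of Grb10 touched: they were separate in CPM, but as plain percentages of counts the higher GCE/+ value, 0.216%, was above the lower GCE/GCE value, 0.214%. Cdkn1c, an inhibitor of cyclin-dependent kinases (chromosome 7, 143458339 to 143461050, minus strand), was at 870.2 and 734 CPM in GCE/+ and 756 and 847 CPM in GCE/GCE cells. The GCE/GCE values lay between the GCE/+ values. Meg3, a long noncoding RNA (chromosome 12, 109541001 to 109571726, plus strand), was at 1334 and 1498 CPM in GCE/+ cells and at 1334 and 1325 CPM in GCE/GCE cells. Meg3 ranked 3 among the long noncoding RNA genes.

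As CPM, 8 of the 10 genes were among the 100 most abundant genes in GCE/+ cells. Cdkn1c at rank 106 and Ndn at rank 793 were the exceptions. CPM favour long transcripts, and levels of different genes are comparable only per length. As CPM per kb of the longest annotated transcript, 3 of the 10 genes, H19, Igf2 and Mest, were among the first 100, at ranks 2, 6 and 12. On this scale the level of H19 was 3826 CPM per kb, above Igf2 with 1561 and Mest with 1265, and these steps were larger than the spread of the samples. Cdkn1c (422 CPM per kb), Grb10 (398) and Dlk1 (365) followed, and their GCE/+ samples overlapped from neighbour to neighbour. Plagl1 (284 CPM per kb) was separate from Dlk1 in GCE/+ samples, though not over all 4 samples. Peg3 (128 CPM per kb) and Meg3 (97.3) overlapped, and Ndn was lowest with 61.8 CPM per kb of an annotated transcript of 3694 bases. That transcript begins at 62346569, upstream of the window around the RefSeq start of Ndn (62348027 to 62348326). A transcript from the RefSeq start would be shorter and its CPM per kb higher, so the last place of Ndn on this scale is uncertain. Meg3 moved most between the scales, from rank 43 by CPM to rank 556 per kb, as its longest transcript has 14548 bases.

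**Figure D2:**
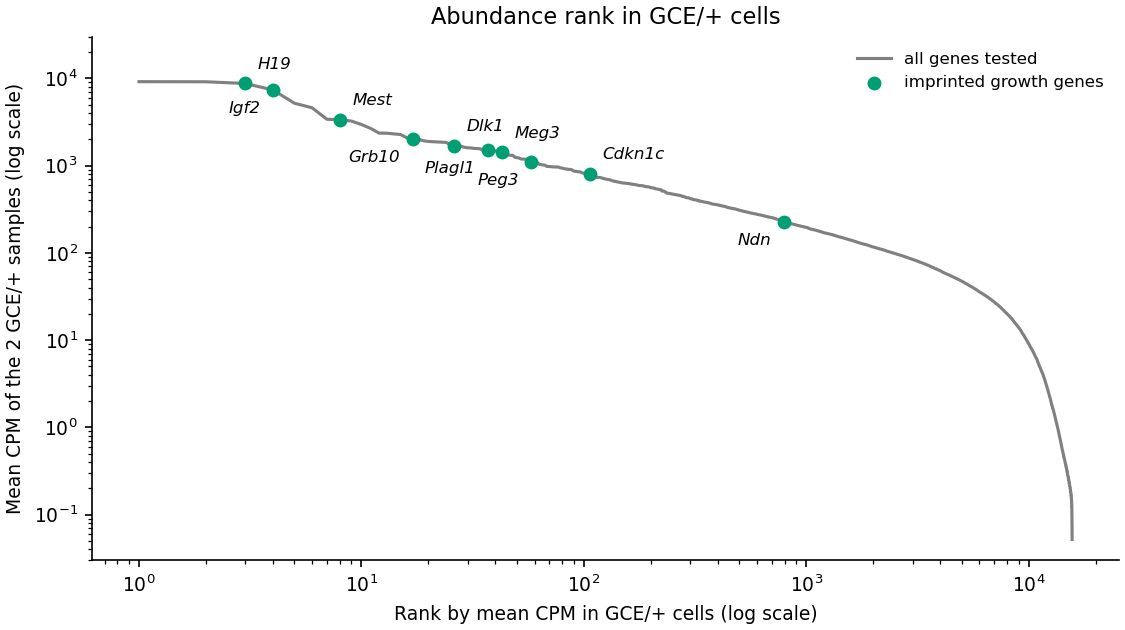
Mean CPM of the 2 GCE/+ samples against abundance rank, both on log scales, for all genes tested (grey line) and the 10 imprinted growth genes (green points). H19 and Igf2 are at ranks 3 and 4, Mest at 8, Grb10 at 17, and Ndn lies apart at rank 793.

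The 10 genes together took 2.80% of all counts in GCE/+ replicate 1 (95% Wilson interval 2.79 to 2.80), 2.88% in GCE/+ replicate 2 (2.87 to 2.88), 2.84% in GCE/GCE replicate 1 (2.84 to 2.85) and 2.82% in GCE/GCE replicate 2 (2.81 to 2.82). Such intervals cover counting error only. Both GCE/GCE shares lay between the shares of the GCE/+ replicates. H19 and Igf2 alone made up 1.60% to 1.67% of a sample's counts, and the 10 most abundant genes of all made up 5.40% to 5.89%.

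Between GCE/GCE and GCE/+ cells, edgeR called 0 of the 10 imprinted growth genes at a Benjamini-Hochberg adjusted p under 0.1, where 285 of 15645 genes, 1.82%, did. An unadjusted p under 0.05 was reached by 2 of the 10, Dlk1 and Ndn, and by 1640 of all genes tested, 10.5%. DESeq2, which the authors used, called 1 of the 10 at an adjusted p of 0.1, Dlk1, beside 3.45% of the genes to which it gave an adjusted p. The median log2 fold change was -0.01 over the 10 genes and 0.00 over all genes tested, with 4 positive and 6 negative values. For 2 genes, H19 and Grb10, both GCE/GCE values were above both GCE/+ values in CPM, a pattern shared by 19.2% of all genes tested, and for 3 genes, Dlk1, Plagl1 and Ndn, both were below, as for 19.1% of all genes. With 2 samples against 2, an exact permutation test of a single gene cannot go below p = 0.333 (two-sided), so calls depend on a spread estimated across genes.

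Dlk1, which encodes a transmembrane protein related to the Notch ligands and known to hold back adipocyte differentiation (chromosome 12, 109452823 to 109463336, plus strand), was the member with the lowest p. It was at 1854 and 1540.3 CPM in GCE/+ replicates 1 and 2, and at 1325 and 1099.9 CPM in GCE/GCE replicates 1 and 2. Both GCE/GCE samples were below both GCE/+ samples, and replicate 2 minus replicate 1 was -0.27 on the log2 scale in either genotype. The log2 fold change was -0.49 (SE 0.15, 95% interval -0.82 to -0.15), a level 28.6% lower in GCE/GCE cells. By edgeR the adjusted p was 0.217, and by DESeq2 it was 0.00651. Dlk1 ranked 26 in GCE/+ and 50 in GCE/GCE cells. Without GCE/+ replicate 2 the log2 fold change was -0.61 (edgeR adjusted p = 0.0636), and without GCE/GCE replicate 1 it was -0.63 (edgeR adjusted p = 0.0620), both past the threshold. Without GCE/+ replicate 1 it was -0.35 (edgeR adjusted p = 0.47), and without GCE/GCE replicate 2 it was -0.36 (edgeR adjusted p = 0.831).

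Ndn, which encodes necdin, a protein of the MAGE family (chromosome 7, 62346569 to 62350262, plus strand), was at 251 and 206 CPM in GCE/+ cells and at 195 and 176 CPM in GCE/GCE cells. Again both GCE/GCE samples were below both GCE/+ samples, by a gap that was smaller than the difference between the GCE/+ replicates. The log2 fold change was -0.30 (SE 0.11, 95% interval -0.55 to -0.05), with an adjusted p of 0.352 by edgeR and of 0.256 by DESeq2. With 1 sample left out at a time, Ndn was at -0.16 without GCE/+ replicate 1 (edgeR adjusted p = 0.788), at -0.43 without GCE/+ replicate 2 (0.0501, past the threshold), at -0.38 without GCE/GCE replicate 1 (0.192) and at -0.23 without GCE/GCE replicate 2 (0.98).

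For Peg3 the log2 fold change was 0.33 (SE 0.20, 95% interval -0.13 to 0.79, edgeR adjusted p = 0.686), and one sample decided it. Without GCE/+ replicate 1 it was 0.02, and without GCE/+ replicate 2 it was 0.72 with an edgeR adjusted p of 0.0272, because the sample left out is in one case the low GCE/+ value and in the other the high one. For Plagl1 it was -0.31 (SE 0.16, edgeR adjusted p = 0.609), for Grb10 0.13 (SE 0.13, edgeR adjusted p = 0.879) and for Meg3 -0.09 (SE 0.12, edgeR adjusted p = 0.917). Plagl1 was at -0.56 without GCE/GCE replicate 1 and at -0.10 without GCE/GCE replicate 2, and Grb10 at 0.02 without GCE/+ replicate 1 and at 0.23 without GCE/+ replicate 2. Meg3 was at -0.18 without GCE/+ replicate 1 and at -0.0052 without GCE/+ replicate 2. With an offset for the trend on transcript length Meg3 was at -0.29 (edgeR adjusted p = 0.163), further from 0 than without it. None of the values given for Plagl1, Grb10 and Meg3 passed the threshold. Mest at -0.01 (SE 0.15) and Cdkn1c at 0.00 (SE 0.12) had the values nearest to 0, and like Igf2 they changed sign under other settings. The 95% intervals of Meg3, Mest and Cdkn1c ran from -0.36 to 0.32 on the log2 scale at the widest.

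**Figure D3:**
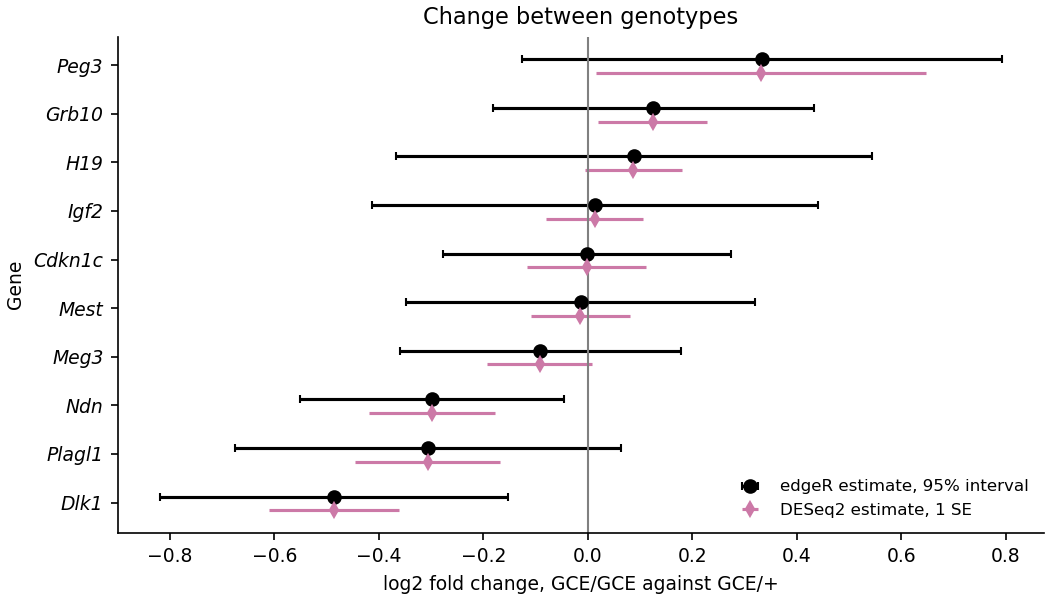
The log2 fold change of each of the 10 genes, GCE/GCE against GCE/+, with the edgeR estimate and its 95% interval (black) and the DESeq2 estimate with 1 SE (pink diamonds). The edgeR intervals of Dlk1 and Ndn lie below 0 before adjustment over all genes, and the interval of every other gene includes 0.

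Marker lists of other cell types were read beside these values, and some of them differed between the genotypes. The study reports the cartilage and tendon genes it examined as raised within sorted cells that lack Osr1. The summed level of 14 macrophage markers was 394 and 407 CPM in GCE/+ and 248 and 174 CPM in GCE/GCE cells, with 11 of 14 called lower by edgeR. The summed level of 16 cartilage markers was 1057, 1552, 2200 and 2378 CPM in the same order, with 7 of 16 called higher. The 7 tendon markers summed to between 1664 and 2317 CPM, most of it in every sample from Egr1, at 1269 to 1839 CPM. The tendon sum therefore says little of the other genes on that list. edgeR called 3 of the 7 higher, Mkx, Tnmd and Fmod, and 1 lower, Kera. The 12 myogenic markers summed to between 172 and 224 CPM and the 8 erythroid markers to between 175 and 513 CPM. No gene of these last 2 lists was called by edgeR, where 3 myogenic and 0 erythroid genes had an unadjusted p under 0.05. DESeq2 called 1 myogenic gene, Ttn, higher. The 8 endothelial markers summed to 120 and 96.5 CPM in GCE/+ and to 97.2 and 80.8 CPM in GCE/GCE cells, with 7 of 8 log2 fold changes negative and a median of -0.41. edgeR called 0 of the 8, of which 4 had an unadjusted p under 0.05, and DESeq2 called 1, Tie1, lower. The cartilage sum was lowest and Dlk1 highest in GCE/+ replicate 1, and the cartilage sum was highest and Dlk1 lowest in GCE/GCE replicate 2. The endothelial and limb mesenchyme sums also had their highest value in GCE/+ replicate 1 and their lowest in GCE/GCE replicate 2. The limb mesenchyme sum was 21799 and 19894.5 CPM in GCE/+ and 19225 and 16883 CPM in GCE/GCE cells. Of its 11 log2 fold changes, 9 were negative and 2 positive, and edgeR called 1 lower, Osr1 itself, and DESeq2 3. The erythroid sum had both its highest and its lowest value in GCE/+ cells. The part of these cells in the values of Dlk1, Ndn or Plagl1 was not tested, and in a sorted bulk sample fewer cells of a type and less RNA per cell cannot be told apart.

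The windows around the RefSeq start sites of Dlk1 and Ndn are shown because these were the members with an unadjusted p under 0.05 (edgeR, over all genes). Each runs from 250 bases before to 50 bases after the start on the plus strand of GRCm38.p6, at chr12:109452573-109452872 for Dlk1 and chr7:62348027-62348326 for Ndn, with every CpG, the dinucleotide that carries imprinting methylation, in capitals.
Dlk1 promoter: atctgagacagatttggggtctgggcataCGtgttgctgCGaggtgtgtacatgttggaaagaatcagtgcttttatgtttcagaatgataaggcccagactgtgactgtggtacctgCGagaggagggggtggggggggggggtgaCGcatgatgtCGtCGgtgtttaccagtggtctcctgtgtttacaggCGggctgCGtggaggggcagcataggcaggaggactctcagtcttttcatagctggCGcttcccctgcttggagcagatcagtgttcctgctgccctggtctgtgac
Ndn promoter: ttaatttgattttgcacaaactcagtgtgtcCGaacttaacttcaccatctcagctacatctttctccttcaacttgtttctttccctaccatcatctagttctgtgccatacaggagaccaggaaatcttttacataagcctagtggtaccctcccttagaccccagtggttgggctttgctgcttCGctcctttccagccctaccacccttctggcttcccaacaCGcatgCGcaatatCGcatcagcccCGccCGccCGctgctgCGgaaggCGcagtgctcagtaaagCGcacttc

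The Dlk1 window held 9 CpG and the Ndn window 11, against a median of 7 over all 32851 RefSeq promoter windows of the same length. RefSeq windows were found for 8 of the 10 genes, 15 in all, and 12 of the 15 were above that median. Mest had 3 of the windows and Igf2 had 4. The Mest windows at chr6:30737800-30738099 and chr6:30737803-30738102 almost coincide, so nearly the same sequence was counted more than once. H19 and Cdkn1c are named only. The letters GGGCGG, searched on both strands, stood in 8 of the 15 windows and in 35.7% of all windows, with 2 matches for Ndn and none for Dlk1. CCAAT stood in 3 of the 15 (37.4% of all windows) and TATAAA in 1 of the 15 (13.6% of all windows). The matches describe letters only, and neither binding nor methylation was measured in these files.

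Dlk1 and Meg3 belong to one imprinted cluster on chromosome 12, in which Dlk1, Rtl1 and Dio3 are read from the paternal copy and Meg3, Rian and Mirg from the maternal copy. Rian, a long noncoding RNA that hosts small nucleolar RNAs, was at 1763 and 1703 CPM in GCE/+ and 1521 and 1531 CPM in GCE/GCE cells. Rtl1, Dio3 and Mirg were added after their values were seen, as the further genes of the cluster. Rtl1, a gene derived from a retrotransposon, was at 13.7 and 14.3 CPM in GCE/+ and 13.9 and 12.7 CPM in GCE/GCE cells. Dio3, which inactivates thyroid hormone, was at 9.34 and 11.2 CPM and at 6.73 and 8.10 CPM, and Mirg was at 47.4 and 49.9 CPM and at 45.0 and 39.4 CPM. Both GCE/GCE values were below both GCE/+ values for Dlk1, Dio3, Rian and Mirg, and they overlapped for Meg3 and Rtl1. Over all genes tested, 19.1% had both values below. None of the 6 genes was called by edgeR, and DESeq2 called Dlk1 alone among them.

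**Figure D4:**
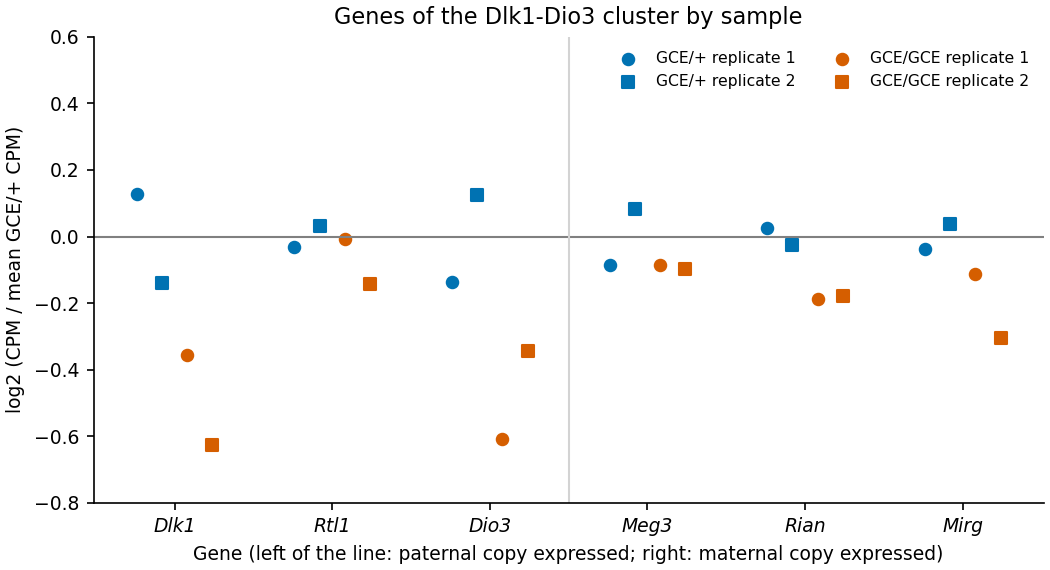
The log2 ratio of the CPM of each sample to the mean GCE/+ CPM, for 6 genes of the Dlk1-Dio3 cluster, with genes of the paternal copy left of the vertical line and genes of the maternal copy right of it. GCE/GCE values lie under both GCE/+ values for Dlk1, Dio3, Rian and Mirg, while Meg3 and Rtl1 overlap.

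Ratios within a sample do not depend on library scaling. H19 over Igf2 in CPM was 1.19 in both GCE/+ samples and 1.29 and 1.21 in GCE/GCE replicates 1 and 2, a difference of 0.07 on the log2 scale. The GCE/GCE replicates differed from each other by more than that difference. Dlk1 over Meg3 was 1.39 and 1.03 in GCE/+ and 0.993 and 0.830 in GCE/GCE cells, and the GCE/+ replicates again differed by more than the nearest samples of the 2 genotypes. Igf2 over Igf2r, the receptor that clears IGF2 from the cell surface, was 8.27 and 8.03 in GCE/+ and 7.83 and 8.17 in GCE/GCE cells, and the groups overlapped. The ratio of Grb10 to Igf1r was between 10.3 and 11.0 in all 4 samples, also with overlap.

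By the root mean square difference of centred log2 CPM over the 4 samples, the closest pairs among the 10 genes were H19 with Igf2 (0.05), and Igf2 with Mest (0.05). Dlk1 and Ndn were 0.11 apart. Of 2466 genes tested with a mean of at least 100 CPM, those most like H19 were Casc4 (0.0066), Scd2, Lphn1, Zfr and Taok1, and those most like Igf2 included Ddx5 (0.0053), Ccny, Tmod3 and Cnot2. These are genes with little variation over the samples, and likeness over 4 samples carries no test.

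The genes through which IGF2 acts were read as a list of 16 receptors, substrates, RNA-binding proteins and binding proteins. None of the 16 was called by edgeR, beside 1.82% of all genes tested, and their median log2 fold change was 0.04. An unadjusted p under 0.05 in edgeR was reached by 3 of the 16, beside 10.5% of all genes tested. They were Igfbp5 (log2 fold change 0.34), Irs1 (0.22) and Igfbp6 (-0.93, at 1.57 to 4.56 CPM), named here for these p-values. DESeq2 called 1 of the 16, Igfbp5, beside 3.45% of the genes to which it gave an adjusted p. Igfbp5 encodes an IGF-binding protein and was at 1829 and 2189 CPM in GCE/+ and 2648 and 2435 CPM in GCE/GCE cells. Igf1r, the signalling receptor, was at 171 and 203 CPM in GCE/+ and 203 and 217 CPM in GCE/GCE cells. Igf2r was at 878 and 931 CPM and at 931 and 929.6 CPM. The mRNAs of the proteins that bind the Igf2 transcript were all detected: Igf2bp1 was between 187 and 229 CPM, Igf2bp2 between 263 and 297 CPM and Igf2bp3 between 135 and 151 CPM over the 4 samples, and for each the genotypes overlapped.

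Of 9 genes that protect imprints, 8 were tested. None was called by edgeR, beside 1.82% of all genes, or by DESeq2, beside 3.45%. In edgeR 1 of the 8 had an unadjusted p under 0.05, beside 10.5% of all genes. Dnmt1, the maintenance DNA methyltransferase, was at 208 and 232 CPM in GCE/+ and at 228 and 226 CPM in GCE/GCE cells. Its partner Uhrf1 was between 154 and 172 CPM and Trim28, a corepressor, between 628 and 644 CPM. Zfp57, the zinc finger protein that recognises methylated imprinting control regions, was at 101 and 100.04 CPM in GCE/+ and at 111 and 117 CPM in GCE/GCE cells. Both GCE/GCE samples were the higher ones for Zfp57, as for 19.2% of all genes tested, and the lower ones for Uhrf1, as for 19.1%. The groups overlapped for Dnmt1 and Trim28.

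The wider list of imprinted genes held 59 further symbols in the files, 56 of them tested. It was drawn from textbook knowledge, and whether each gene is imprinted in these limb cells was not measured. One of the 56 was called by edgeR and it was lower, close to the 1.82% called over all genes, while 28 of the 56 log2 fold changes were positive and 28 negative, with a median of 0.00. Gatm, an enzyme of creatine synthesis, was at 38.0 and 44.2 CPM in GCE/+ and at 26.2 and 25.7 CPM in GCE/GCE cells. Gatm thus differed by -0.66 on the log2 scale (SE 0.10, edgeR adjusted p = 0.0328), larger than the spread of the replicates, and this call held under every alternative run. With the replicate number as a block, edgeR called 2 of the 56. DESeq2 called 4 of the 56, a larger share than the 3.45% over all genes, with Gatm and Ano1 lower and Nnat and Zdbf2 higher. Ano1, a chloride channel named after its values were seen, was at 23.6 and 20.6 CPM in GCE/+ and 16.9 and 13.1 CPM in GCE/GCE cells.

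The most abundant of these further genes was Gnas, which encodes the stimulatory G protein alpha subunit, with 2460.1 and 2166 CPM in GCE/+ and 2301 and 2158 CPM in GCE/GCE cells at rank 14. It was followed by Rian at rank 25, Igf2r at rank 87 and Peg10, derived from a retrotransposon, at rank 92 with 753 to 968 CPM. Cd81 was between 255 and 285 CPM, Slc38a4, an amino acid transporter, between 227 and 262 CPM, Zdbf2 between 226 and 328 CPM and Nnat between 220 and 351 CPM. Zdbf2 and Nnat had both GCE/GCE values above both GCE/+ values, and Rian and Slc38a4 had both below. Of the 56 tested, 12 had both above and 11 both below, beside 19.2% and 19.1% of all genes tested. Counted with the 10 growth genes, 69 imprinted genes took 3.65% to 3.73% of all counts, and the 10 growth genes held most of that. At the other end, 11 of the 59 had a mean under 1 CPM in GCE/+ cells. One of them, Snrpn, named after its values were seen, shares exons with Snurf, and intersection-strict counting leaves out reads that fit both, so its 0.0657 to 0.229 CPM need not be the level of the transcript.

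**Figure D5:**
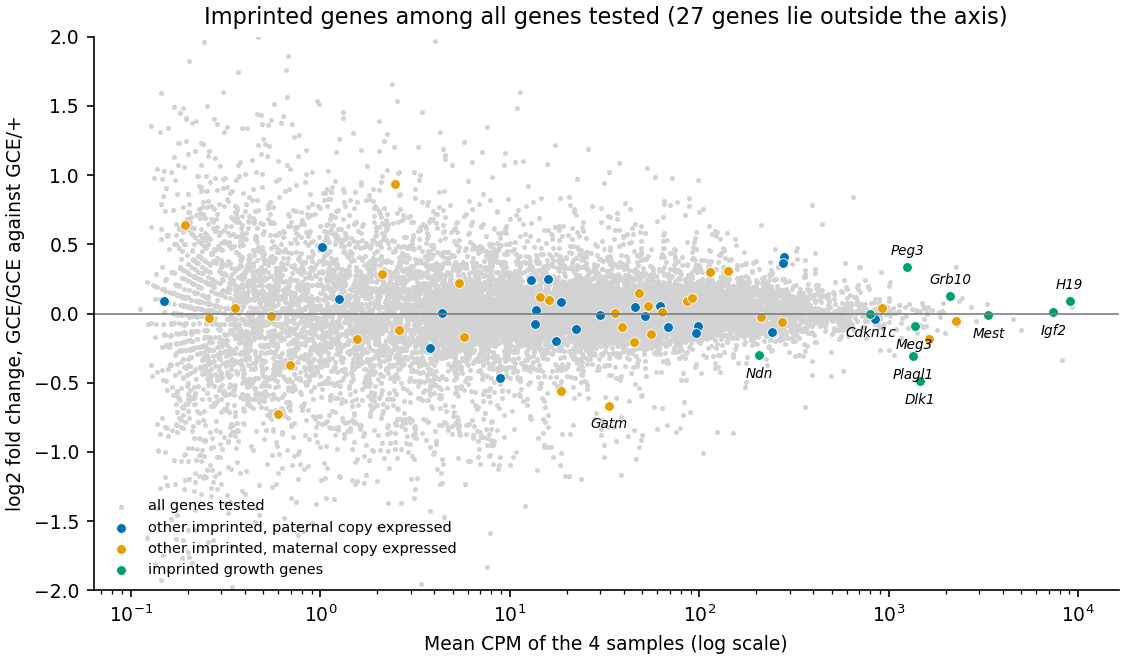
The log2 fold change, GCE/GCE against GCE/+, against mean CPM of the 4 samples on a log scale, for all genes tested (grey) and for the imprinted genes (coloured by list), with 27 genes outside the axis. The 10 growth genes lie in the right part of the cloud, between -0.49 and 0.33. Gatm is the one gene of the imprinted lists past the edgeR threshold, and its imprinting in these cells was not measured.

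Some of the 10 genes overlap others on the opposite strand. The library kit does not mark strand, so reads of Igf2 and Igf2as, listed at 54.5 to 68.0 CPM, and of Mest and Copg2, listed at 43.4 to 50.4 CPM, could not be told apart in the region that each pair shares. As listed, both partners were at a small part of the CPM of the gene they overlap. Intersection-strict counting leaves out reads that fit both genes, so the listed CPM need not be the levels of the partners.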

How the data were processed

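RNA of GFP-sorted Osr1+ limb cells was prepared with the TruSeq RNA v2 kit, which does not mark strand. Per the methods of the study, 50-bp paired-end reads were aligned by TopHat2 to the mm9 build, given UCSC gene models, and fragments were counted with HTSeq in intersection-strict mode. The authors deposited raw counts per gene symbol, without normalization. Versions of these tools were not given in the sources used here.

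Groups and replicate numbers were taken from the labels. Counts were filtered with filterByExpr, scaled by TMM and compared with edgeR 4.0.16 (quasi-likelihood test, R 4.3.3), two-sided, GCE/GCE against GCE/+, with Benjamini-Hochberg adjustment over 15645 genes and a threshold of 0.1. Degrees of freedom were 2 residual and 6.381 prior. DESeq2 1.42.0, other normalizations and filters, a transcript length offset, the replicate number as a block and leaving out each sample were alternatives. The procedure was tested on simulated data.

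A GRCm38 annotation (GENCODE) held 22824 of the 23284 symbols. Coordinates are in GRCm38 and none were converted from mm9. Named were the 10 growth genes, of the other imprinted genes those called and the 8 most abundant in GCE/+ cells, fixed members of the IGF2 and imprint-protecting lists, the 5 genes most like H19 and Igf2, of which 1 is not reported here, and Osr1. The members and lists were chosen with earlier results of these data known.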

Additional observations from a re-analysis of the deposited data

How the results depend on the processing

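The number of genes called, 285, was 508 with DESeq2, 127 without the filter on low counts, 130 at an adjusted p under 0.05, 489 with the transcript length offset and the replicate block together, and 199 to 961 when a sample was left out. The highest values were 961 without GCE/+ replicate 2 and 747 without GCE/GCE replicate 1. The replicate block alone gave 290. Same-numbered samples deviated together with a correlation of 0.00 over 9764 genes. A correlation of this kind cannot tell whether they shared a litter, a sort or a library batch, which the labels do not give. The count of the 10 growth genes called, 0, was 1 with DESeq2 (Dlk1), 2 with length offset and block (Dlk1, edgeR adjusted p = 0.0275, and Ndn, edgeR adjusted p = 0.0969), and 0 to 3 with a sample left out. It was 3 without GCE/+ replicate 2 (Dlk1, Peg3, Ndn) and 1 without GCE/GCE replicate 1 (Dlk1). Of the other imprinted genes, 1 was called, against 4 with DESeq2, 2 with the replicate block, 4 with length offset and block, and 1 to 6 with a sample left out. The median log2 fold change of the 10 genes was between -0.062 and 0.021 with a sample left out. Among the first 100 genes stood 8 of the 10 by CPM, 3 per kb of the longest transcript and 4 per kb of all exons, a length chosen after seeing the data. The fourth gene there was Cdkn1c, which was not among the 8.

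Igf2 changed sign with upper quartile scaling (-0.0026), the length offset (-0.0204) and the offset with block (-0.0207), and was between -0.0157 and 0.0364 with a sample left out. Mest changed sign with the offset (0.0085) and the offset with block (0.0087) and was between -0.0601 and 0.0288 with a sample left out. Cdkn1c changed sign with the replicate block (0.0020), the offset (0.0428) and the offset with block (0.0431) and was between -0.12 and 0.12 with a sample left out. The other 7 growth genes, Gatm and Osr1 kept their direction under every alternative run. The cause was not tested. Counting error was at most 0.964% for any of the 10 genes, and the 2 samples of a group set the precision.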
